A study of Mus musculus with 4 samples.

Results

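The 9 genes described here hold epithelial cells together and were followed on 4 arrays of sorted mouse tumour cells: the adhesion genes Epcam and Cdh1, the claudin genes Cldn3, Cldn4 and Cldn7, the other tight junction membrane genes Ocln, Marveld2 and F11r, and the scaffold gene Tjp1. They were chosen by name from the gene names of the array design, and these 9 of 37074 distinct feature names were read by 12 of the 56605 oligos. Of the 9, 8 were measured, meaning that an oligo was called well above background by the scanner software on 2 or more of the arrays, as were 23520 features in all. Ocln was not. The study implanted 4T1, a mouse mammary carcinoma line, in BALB/C mice that received no treatment. Cells of the tumours were sorted by the ALDEFLUOR kit, whose substrate becomes fluorescent inside cells with aldehyde dehydrogenase (ALDH) activity, into a fraction of low and a fraction of high ALDH activity. The tumours were from zeitgeber time (ZT) 0 h or 12 h. The 4 groups were therefore ZT0 ALDH-low, ZT0 ALDH-high, ZT12 ALDH-low and ZT12 ALDH-high, with 1 one-colour array each. No group had a replicate, the number of mice behind each fraction and their age are not given in the sources used here, and precision is limited by having a single array in a group.

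In epithelia, E-cadherin, the product of Cdh1, joins neighbouring cells at adherens junctions and binds catenins on the inner side of the membrane. Tight junctions lie nearer the cell apex: claudins form their strands, occludin (Ocln) and tricellulin (Marveld2) sit in the strands and at tricellular corners, JAM-A (F11r) is an immunoglobulin-type adhesion protein, and ZO-1 (Tjp1) anchors the strands to actin. EpCAM is a membrane glycoprotein of epithelial cells that binds claudin-7. EpCAM and E-cadherin are widely used markers of epithelial tumour cells, whereas JAM-A is also found on leukocytes, platelets and endothelium, and ZO-1 in endothelium and other stromal cells.

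Sequences are printed for 4 measured genes whose ALDH difference at ZT0, described below, was among the lowest of the set, to show what the signal was read from and what these genes carry in front of their starts. Oligos are given for Epcam and Cldn4 as examples. The Epcam oligo lies at chr17:88048972-88049800 on the + strand and the Cldn4 oligo at chr5:135422135-135422194 on the - strand, both in mm9 as the files give them, and both are in lower case since no stretch is singled out. The Epcam oligo has 60 bases but spans 829 bases of the genome, so it is split over more than 1 exon.
Epcam oligo: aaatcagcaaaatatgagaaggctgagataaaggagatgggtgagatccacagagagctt
Cldn4 oligo: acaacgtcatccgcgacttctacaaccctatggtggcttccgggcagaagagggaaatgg

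The RefSeq promoter table, of build GRCm38.p6, held entries for 8 of the 9 genes, with 11 windows, since Cldn7, Ocln and Marveld2 have 2 starts each. It held none for Cdh1, so the promoter of the E-cadherin gene was not read. The windows of Epcam, Cldn3, Cldn4 and Tjp1, which have 1 start each, are given as the 250 bases before the start, 5′ to 3′ on the strand of the gene. Capitals mark CAGGTG on either strand, the E-box that SNAIL and ZEB repressors bind. Capitals also mark GGGCGG on either strand, the GC box that SP1 binds. The windows are chr17:87635729-87635978 (+) for Epcam, chr5:134985964-134986213 (+) for Cldn3, chr5:134946935-134947184 (-) for Cldn4 and chr7:65371245-65371494 (-) for Tjp1.
Epcam promoter: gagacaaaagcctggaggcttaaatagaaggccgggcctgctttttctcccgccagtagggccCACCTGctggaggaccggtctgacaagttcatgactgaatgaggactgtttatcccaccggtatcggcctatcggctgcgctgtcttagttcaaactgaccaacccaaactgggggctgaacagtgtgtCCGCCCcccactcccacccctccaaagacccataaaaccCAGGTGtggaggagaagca
Cldn3 promoter: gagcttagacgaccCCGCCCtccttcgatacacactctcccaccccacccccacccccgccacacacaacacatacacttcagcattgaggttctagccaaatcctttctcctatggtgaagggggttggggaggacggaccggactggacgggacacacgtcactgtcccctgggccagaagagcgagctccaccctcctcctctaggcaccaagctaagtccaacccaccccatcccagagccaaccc
Cldn4 promoter: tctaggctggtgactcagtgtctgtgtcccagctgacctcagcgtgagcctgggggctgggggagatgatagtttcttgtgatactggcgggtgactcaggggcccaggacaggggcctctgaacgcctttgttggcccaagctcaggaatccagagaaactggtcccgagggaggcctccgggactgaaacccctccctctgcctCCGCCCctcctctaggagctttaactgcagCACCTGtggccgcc
Tjp1 promoter: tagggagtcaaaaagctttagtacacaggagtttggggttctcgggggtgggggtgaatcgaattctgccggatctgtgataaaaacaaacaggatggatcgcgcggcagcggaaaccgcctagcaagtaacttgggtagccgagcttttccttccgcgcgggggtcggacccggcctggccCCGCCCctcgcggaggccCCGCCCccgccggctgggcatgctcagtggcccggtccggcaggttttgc

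The Epcam window held 2 matches to CAGGTG, whose first bases lie 187 and 19 bases before the start, and the Cldn4 window 1, at 14 bases before it. The Cldn3 and Tjp1 windows held none. Over the genes with an entry, CAGGTG was found in 5 of 11 windows, against 17.2% of all 32841 windows of this length and 16.9% of the 21254 windows of protein-coding genes. GGGCGG was found in 10 of 11 windows, against 32.8% of all windows and 42.6% of those of protein-coding genes. The GC content of the 11 windows was between 50.4% and 69.2% (56.4%, 60.8%, 62% and 63.2% for those printed, in the order given). Its median was 52.4% over all windows and 55.6% over those of protein-coding genes. The shares are not matched for GC content. Windows of 1 gene can overlap, and a match is a description of the letters alone. Cldn3 and Cldn4 are next to each other on chromosome 5 with 0 protein-coding genes between them in the RefSeq gene table, as are Ocln and Marveld2 on chromosome 13.

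Levels below are the log2 processed signal minus the log2 of the 75th percentile of the same array, so 0 is that percentile of the array's non-control spots. That percentile was between 156.3 and 458.8 signal units over the 4 arrays, and between 55.8% and 60.6% of spots were well above background. Slide 1 carried the ZT0 pair and slide 2 the ZT12 pair, which means that a time effect cannot be told apart from a slide effect. On slide position 1_1 were the ALDH-low array of ZT0 and the ALDH-high array of ZT12, with spike-in slopes of 0.873 and 0.789. On position 1_2 were the remaining arrays, with slopes of 0.956 (ZT0) and 0.944 (ZT12). At each time, array position and spike-in slope therefore changed together with the ALDH arm, in opposite directions at ZT0 and ZT12, and their part in the results was not tested. Replicate error is not known, and the only error given is that of the scanner software for each spot. It came to between 0.20 and 0.45 log2 units for a difference of 1 of the 9 genes between 2 arrays.

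The labels name 4T1 cells, an epithelial tumour line, and the epithelial keratins Krt8 and Krt18 were well above background on all 4 arrays. Ptprc, which encodes the leukocyte antigen CD45, was too, at 4.10, 7.19, 6.63 and 4.29 in the order ZT0 ALDH-low, ZT0 ALDH-high, ZT12 ALDH-low and ZT12 ALDH-high. In such mixed samples, fewer epithelial cells and less RNA per epithelial cell cannot be told apart.

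At ZT0 the processed signal of Epcam was 231.2 ± 23.3 (scanner error) in the ALDH-low fraction and 27.4 ± 4.05 in the ALDH-high fraction. At ZT12 it was 142.3 ± 14.6 and 102.5 ± 10.8. Scaled to each array, its log2 levels were 0.11, -3.45, -1.69 and -0.61. The ZT0 ALDH-low array was the highest and the ZT0 ALDH-high array stood well below the other 3. Epcam was 11.9-fold lower in the ALDH-high than in the ALDH-low fraction at ZT0 (log2 difference -3.57, scanner error 0.26) and 2.11-fold higher at ZT12 (1.08, error 0.21).

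Cdh1 varied less, with log2 levels of 1.23, 0.15, 0.39 and 1.05 in the same order. Its order over the arrays was that of Epcam, but the whole range was 1.08 log2 units. Cdh1 was 2.12-fold lower at ZT0 in the ALDH-high fraction and 1.58-fold higher at ZT12 (log2 differences -1.08 and 0.66). The ZT0 difference of Epcam exceeded that of Cdh1 by 2.49 log2 units in size, a gap that a constant factor on either array leaves as it is. The gap was 2.18 with quantile normalization and 1.01 with normexp background correction followed by quantile normalization.

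The claudin genes, whose products make the strands of tight junctions, differed more between the ZT0 fractions than Cdh1 did. Cldn3 gave log2 levels of 1.09, -3.31, -0.19 and 0.16, in the order ZT0 ALDH-low, ZT0 ALDH-high, ZT12 ALDH-low and ZT12 ALDH-high. The ZT12 arrays lay close to each other, and the ZT0 ALDH-high array was far below the rest. Cldn3 was 21.1-fold lower at ZT0 in the ALDH-high fraction (log2 difference -4.40, scanner error 0.25), against 1.27-fold higher at ZT12 (0.34, error 0.21). This ZT0 difference lay at percentile 0.112 of the 23234 features that had one.

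Cldn7, whose product binds EpCAM, gave log2 levels of 0.95, -1.99, -0.32 and 0.50 in that order. It was 7.68-fold lower at ZT0 in the ALDH-high fraction and 1.77-fold higher at ZT12 (log2 differences -2.94 and 0.82). A second Cldn7 oligo, whose letters lie inside the window before the other Cldn7 start, was not well above background on any array. Cldn4 gave -1.49, -4.66, -3.47 and -2.77, and the second of these was not well above background. Where an oligo was not well above background on 1 of the arrays compared, only a bound is given, against the higher of its own value and the lowest signal among oligos well above background there. Cldn4 was at least 7.91-fold lower at ZT0 in the ALDH-high fraction (log2 bound -2.98) and 1.63-fold higher at ZT12 (0.70).

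F11r, which encodes JAM-A, gave log2 levels of 2.62, 0.55, 1.88 and 2.26, again in the order ZT0 ALDH-low, ZT0 ALDH-high, ZT12 ALDH-low and ZT12 ALDH-high. Here too the ZT0 ALDH-high array stood apart and the other 3 lay within 1 log2 unit of each other. F11r was 4.19-fold lower at ZT0 in the ALDH-high fraction (-2.07) and 1.30-fold higher at ZT12 (0.38).

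Tjp1, the ZO-1 scaffold, gave -0.63, -3.24, -1.18 and -2.0. Unlike the genes above, both ALDH-low arrays were higher than both ALDH-high arrays. Tjp1 was 6.08-fold lower at ZT0 in the ALDH-high fraction (-2.60, scanner error 0.25) and 1.77-fold lower at ZT12 (-0.82, error 0.25). A second Tjp1 oligo was dimmer, and was well above background on both ALDH-low arrays (-2.72 and -3.46) and on neither ALDH-high array.

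Marveld2, which encodes tricellulin, stayed within 0.42 log2 units over the arrays, at -1.41, -1.83, -1.59 and -1.80. Its differences between fractions were -0.42 at ZT0 and -0.20 at ZT12, with scanner errors of 0.22 and 0.24, and its second oligo was not well above background on any array. The Ocln oligo was not well above background on any array either, so no level or difference of occludin is given.

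**Figure D1:**
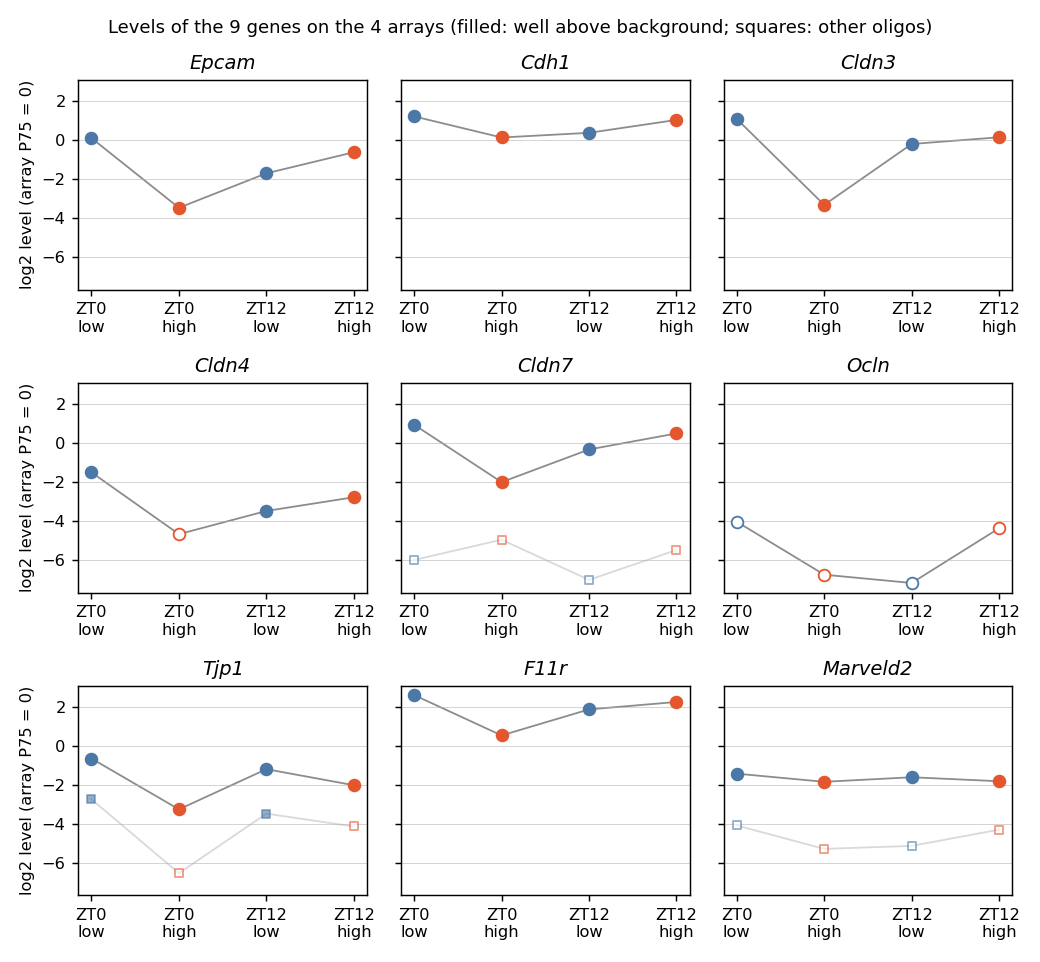
Log2 level (0 is the 75th percentile of the array) of each of the 9 genes on the 4 arrays, ALDH-low in blue and ALDH-high in orange, 1 array per point; circles are the oligo used for the gene, squares its other oligo, and open symbols are not well above background. The ZT0 ALDH-high array is the lowest point of each of the 8 measured genes, by a wide margin for Epcam and Cldn3 and by a narrow one for Marveld2.

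Set side by side at ZT0, 7 of the 8 measured genes were at least 2-fold lower in the ALDH-high fraction and 0 at least 2-fold higher. Over all features tested, 30.9% were at least 2-fold lower and 19.4% at least 2-fold higher in that comparison. The median over the 8 genes was -2.77, against -0.34 over all features. After Cldn3 and Epcam (percentile 0.689) came Cldn4 by its bound (1.99), Cldn7 (2.10), Tjp1 (3.55) and F11r (8.43), while Cdh1 (28.9) and Marveld2 (48.05) lay among the bulk of features. The claudins and Epcam thus lay at the low end of the distribution of features, and tricellulin near its middle. These sizes depend on the background correction: with normexp, which adds an offset of 50 to each signal, and quantile normalization, Cldn3 was 6.95-fold lower, Epcam 4.21-fold, Cldn7 4.69-fold, Tjp1 2.22-fold and Cldn4 2.03-fold, and the median over the genes was -1.61. F11r and Cdh1 were 4.65-fold and 2.09-fold lower, near the values above. With median scaling Cdh1 was 1.51-fold lower, and 6 of the 8 genes were at least 2-fold lower.

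At ZT12 the same genes differed little between fractions: 0 of 8 were at least 2-fold lower and 1, Epcam, at least 2-fold higher. The background was 16.1% of features lower and 31% higher by this size, so the count of 1 higher gene was not above it. The ZT12 difference of Epcam fell short of 2-fold with median scaling (0.21), quantile normalization (0.74), normexp and quantile normalization (0.48) and the authors' deposited table (0.78). The median over the genes was 0.52, against 0.30 over all features. There were 6 genes above 0 and 2, Tjp1 and Marveld2, below it. The signs at ZT12 depend on the scaling: with each array centred on its median, every ZT12 difference is 0.87 log2 units lower and the median over the genes becomes -0.35, against -0.54 for all features. The same change adds 0.48 to every ZT0 difference, where the genes' median is then -2.29 against 0.16 for all features. Over the 9 settings tried (8 for Cldn4, which the strictest filter drops), 3 of 8 genes kept 1 sign at ZT12 (Epcam above 0, Tjp1 and Marveld2 below) and 7 of 8 at ZT0, Marveld2 being the exception. The setting that kept spots flagged as outliers could not change these genes, since each of their oligos has 1 spot on an array.

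Between the times, most of these genes were lower at ZT12 in the ALDH-low fraction and higher in the ALDH-high fraction. The medians over the genes were -1.055 and 1.71, against -0.43 and 0.35 over all features. With median scaling they were -0.23 and 1.18, against 0.40 and -0.19. Over the settings tried, 5 of 8 genes kept 1 sign in the ALDH-low fraction, all but F11r, Tjp1 and Marveld2. In the ALDH-high fraction 7 of 8 did, all but Marveld2. In the ALDH-low fraction 4 of 8 genes were at least 2-fold lower at ZT12 than at ZT0 and 0 higher, against 32.5% and 16.3% of features. These 4 were Epcam (-1.80), Cldn4 (-1.98), Cldn3 (-1.28) and Cldn7 (-1.27), and with median scaling Cldn4 alone kept that size. In the ALDH-high fraction 6 of 8 were at least 2-fold higher at ZT12 and 0 lower, against 31.8% and 18.9% of features. The 6 were Cldn3 (3.46), Epcam (2.85), Cldn7 (2.49), F11r (1.71), Cldn4 (at least 3.27-fold higher, bound 1.71) and Tjp1 (1.24). With normexp and quantile normalization Cldn3 gave 1.90, Epcam 1.42, Cldn7 1.85, Cldn4 0.37 and Tjp1 0.23. This comparison shares the ZT0 ALDH-high array with the ALDH comparison at ZT0, so the 2 counts are not independent of each other.

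All 8 measured genes were highest on the ZT0 ALDH-low array and lowest on the ZT0 ALDH-high array, as were 14.4% of all features. With median scaling 5 of the 8 kept both ends. In 6 of the 8 the full order was ZT0 ALDH-low, ZT12 ALDH-high, ZT12 ALDH-low and ZT0 ALDH-high, an order held by 10.5% of features. In Cldn3 and F11r the 2 ZT12 arrays, neighbours in that order, were 0.34 and 0.38 log2 units apart. For Marveld2 every step between neighbours was at or below 0.20 log2 units, under its scanner errors.

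Because the ALDH arm and the array position change together at each time, the fractions were also compared within a position, where ALDH arm and time change together instead. Each of the 8 genes was lower on the ALDH-high array within both positions, a pattern found in 22.3% of features. These signs follow from the order of the arrays given above and are no separate result. The comparison in position 1_1 subtracts the genes' highest array, and that in position 1_2 starts from their lowest. The pattern held in every setting tried for the genes that passed its filter (7 of 7 where all 4 arrays were required). Within position 1_1, ZT12 ALDH-high minus ZT0 ALDH-low was -0.72 for Epcam, -0.94 for Cldn3, -1.27 for Cldn4, -0.45 for Cldn7, -1.37 for Tjp1, -0.35 for F11r, -0.18 for Cdh1 and -0.39 for Marveld2. Of these, 2 genes were at least 2-fold lower, against 1.65% of features. This count was 0 with normexp and quantile normalization, and 1 where all 4 arrays had to be well above background. Within position 1_2, ZT0 ALDH-high minus ZT12 ALDH-low was -1.77 for Epcam, -3.12 for Cldn3, -1.67 for Cldn7, -2.06 for Tjp1, -1.33 for F11r, -0.24 for Cdh1 and -0.23 for Marveld2, and Cldn4 had a bound of -1.01. Here 6 genes were at least 2-fold lower, against 5.69% of features, and 3 with normexp and quantile normalization. Tjp1 lay at percentile 0.415 of features in the first of these comparisons and 1.40 in the second, and Cldn3 at 2.27 and 0.0969. The difference for Cdh1 was within the scanner error of 0.20 in the first and close to it in the second.

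**Figure D2:**
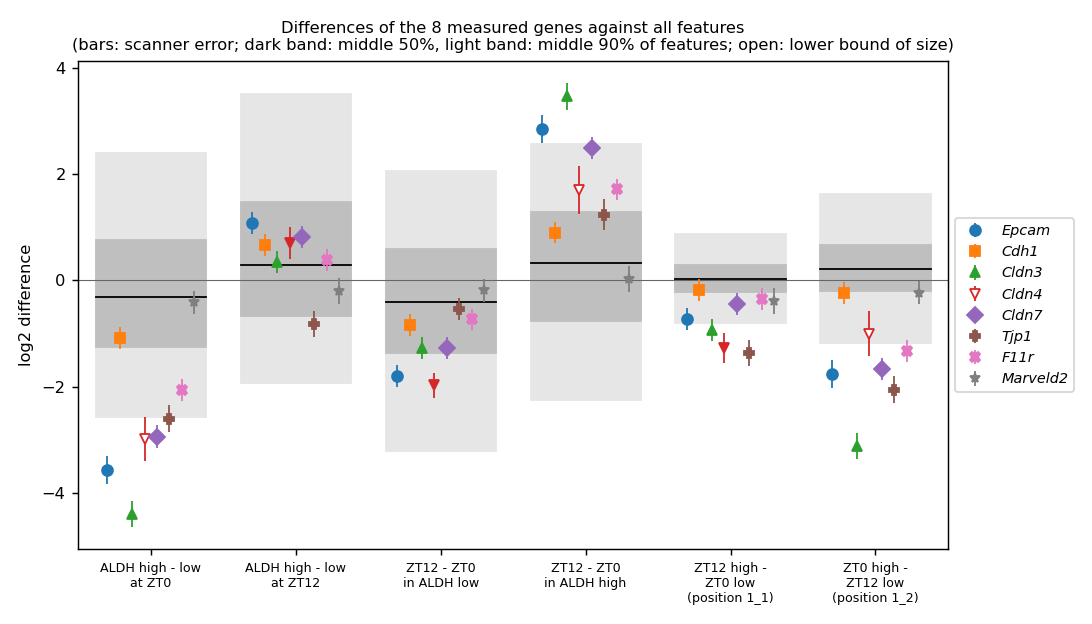
Log2 difference of each of the 8 measured genes in 6 comparisons of 2 arrays, with the scanner error as a bar; the dark band holds the middle 50% and the light band the middle 90% of all 23520 features, the black line is their median, and open symbols are bounds. Epcam, Cldn3, Cldn4, Cldn7 and Tjp1 fall below the light band at ZT0 and 0 genes leave it at ZT12.

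A model was also fitted over all 4 arrays. In an additive limma fit with ALDH arm and time, which has 1 residual degree of freedom, 0 of the 8 genes and 0% of the 23520 features were called for ALDH at a Benjamini-Hochberg adjusted p of 0.05, with 7 features at an unadjusted p under 0.05. For time, 0 genes and 0% of features were called, with 2 features at an unadjusted p under 0.05. The ALDH estimate, which is the mean over both times, was -2.03 for Cldn3 (limma adjusted p = 1), -1.71 for Tjp1, -1.25 for Epcam, -1.23 for Cldn4, -1.06 for Cldn7, -0.84 for F11r, -0.31 for Marveld2 and -0.21 for Cdh1, each with a standard error of 1.54. All 8 estimates were below 0, which follows from each gene being highest on the ZT0 ALDH-low array and lowest on the ZT0 ALDH-high array. That of Cldn4 used its own ZT0 ALDH-high level of -4.66, which was not well above background, and not the bound. The residual of this fit is the difference of the ALDH effect between the times, which are separate conditions. limma pooled the variance over all features (23520 total degrees of freedom), so every gene had the same error. The p-values are therefore not those of a gene-by-gene test, and a count of 0 does not show that a gene was unchanged.

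The partners of these genes in tight junctions gave mixed values. For these and all lists below, the shares of all features at least 2-fold lower and higher were 30.9% and 19.4% at ZT0. At ZT12 they were 16.1% and 31%. A count near these shares is no result about its list. Of 15 measured other tight junction proteins of 17 listed, 9 were at least 2-fold lower and 3 higher at ZT0 in the ALDH-high fraction (median -1.14), and 2 lower and 4 higher of 12 with a difference at ZT12 (median -0.15). The paired values that follow are log2 differences, ALDH-high minus ALDH-low, first at ZT0 and second at ZT12. Tjp3, the ZO-3 scaffold, gave 0.56 and 0.09. Magi1, a membrane-associated scaffold, gave -3.02 and -0.66, Magi2 -2.15 and 2.81, and Mpdz, a PDZ scaffold of tight junctions, -0.99 and 3.14. Of 10 measured other claudins of 20 listed, 2 were at least 2-fold lower and 1 higher at ZT0 (median -0.20, above 0 with median scaling), and 1 lower and 5 higher at ZT12 (median 0.98). Cldn24 had the widest range (-4.09 and 5.68), and Cldn13 (0.60 and 1.13) and Cldn15 (0.87 and 0.71) were above 0 at both times, although Cldn15 gave -0.16 at ZT12 with median scaling. Of 14 polarity genes, 5 were lower and 1 higher by this size at ZT0 (median -0.60), and 2 lower and 4 higher of 11 with a difference at ZT12 (median 0.01, below 0 with median scaling). Prkcz, an atypical protein kinase C of the PAR complex, gave -2.02 and 2.37, Patj -1.55 and 2.94, and Dlg1 -1.21 and 2.17. Several of these values depend on the processing. With averaged oligos Dlg1 gave 0.13 and -0.07, Patj 0.13 at ZT12 and Magi1 0.28 at ZT12. With normexp and quantile normalization Magi1 gave -0.73 and 1.24, Mpdz 1.1 at ZT12 and Prkcz 0.83 at ZT12. The ZT12 value of Tjp3 was below 0 with median scaling (-0.78).

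The cytoplasmic partners of E-cadherin had differences of both signs. Ctnnb1, which encodes beta-catenin, gave 1.48 and -1.81, so its sign at ZT0 was opposite to that of Cdh1 (-1.08). Ctnnd1, p120-catenin, gave -2.10 and -0.40 (1.06 at ZT12 with averaged oligos), and Ctnna1, alpha-catenin, -0.76 and -0.45. Of 12 catenins, nectins and their binders, 8 were at least 2-fold lower and 2 higher at ZT0 (median -1.32), and 2 lower and 3 higher at ZT12 (median 0.05, below 0 with median scaling). The nectin genes Nectin3 and Nectin4 and the binder Plekha7 had the widest ranges (-2.53 and 2.85, -1.21 and 4.30, -2.51 and 1.44). Among 7 measured other cadherins of 9 listed, 4 of 6 with a difference were lower and 0 higher at ZT0 (median -1.58), and 6 of 7 were higher and 0 lower at ZT12 (median 2.98). Cdh2, N-cadherin, gave -1.49 and 3.06, Cdh6 -2.08 and 3.33, and Cdh17 -1.93 and 2.98. Cdh11, the brightest of the list on every array and named after its values were seen, had the opposite signs (0.69 and -0.38). The summed scaled level of the list changed little, at 9.82 and 11.64 in the ALDH-low and ALDH-high fractions of ZT0, and 10.09 and 11.55 in those of ZT12. With normexp and quantile normalization the ZT12 values of Cdh2 and Cdh6 were 1.52 and 1.46. Beside them, the ZT12 difference of Cdh1 was 0.66.

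St14, the membrane protease matriptase, gave -3.80 (-2.30 with normexp and quantile normalization) and 1.31, and its inhibitor Spint1 -2.55 and -0.48. Of the 5 genes of the list that holds them, 3 were at least 2-fold lower and 1 higher at ZT0 (median -1.52), and 1 lower and 1 higher at ZT12 (median -0.0026).

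The factors that act on the epithelial genes were also read. Among 6 measured repressors of E-cadherin of 9 listed, 2 were at least 2-fold lower and 2 higher at ZT0 (median -0.0013, above 0 with median scaling), and 2 lower and 0 higher at ZT12 (median -0.52). Zeb1 gave 2.97 and -2.30, Snai1 1.97 and -1.92, Zeb2 0.80 and -0.74, and Tcf4 -1.75 and 0.63 (-0.24 at ZT12 with median scaling), while Snai2 was not well above background on any array. The levels of Zeb1 were -3.02, -0.05, -0.39 and -2.69 in the order ZT0 ALDH-low, ZT0 ALDH-high, ZT12 ALDH-low and ZT12 ALDH-high. Its 2 high arrays were those of position 1_2, on which Epcam was lowest and Ptprc highest. Within position 1_1 and within position 1_2, ALDH-high minus ALDH-low was 0.33 and 0.34 for Zeb1. Twist1, of the same list, gave a bound of -2.20 at ZT0 and -0.30 at ZT12. A link between any repressor and Epcam was not tested. Zeb1 and Zeb2 are also expressed by leukocytes. Of 7 measured epithelial splicing and transcription factors of 11 listed, 3 were lower and 2 higher by 2-fold at ZT0 (median -0.35, above 0 with median scaling), and 2 lower and 1 higher of 6 at ZT12 (median 0.03, below 0 with median scaling). The epithelial transcription factor Grhl2 gave -1.93 and 0.78 (-0.10 at ZT12 with median scaling), Esrp1, a splicing regulator, -1.07 and -0.22, Ehf -1.16 and 2.51 (0.60 at ZT12 with normexp and quantile normalization), and Klf5 1.94 and -2.15.

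**Figure D3:**
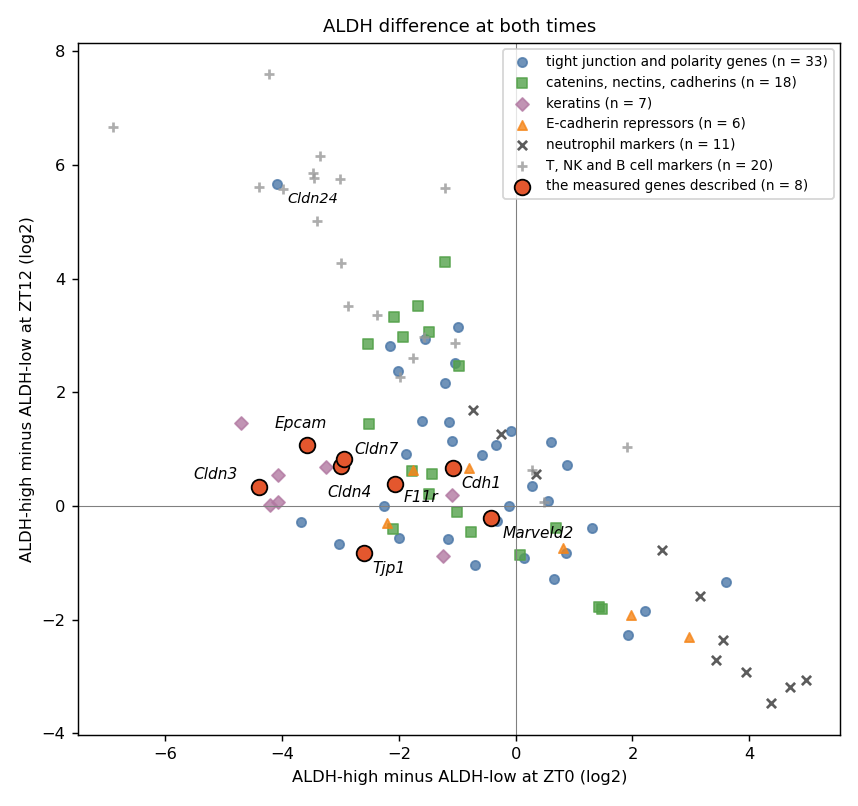
Log2 difference between the fractions (ALDH-high minus ALDH-low), at ZT0 on the x axis and at ZT12 on the y axis, for the 8 measured genes (orange circles; Cldn4 at its bound on the x axis) and for genes of the lists named in the key, 1 point per gene. The 8 genes lie left of 0 at ZT0 and between -0.82 and 1.08 at ZT12, near most keratins, while Cldn24 (labelled) lies among the lymphocyte markers.

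Markers of the cells that a sorted tumour fraction could hold moved with the comparison, and their part in these results was not tested. Epithelial keratins were lower at ZT0 in 7 of 7 genes by at least 2-fold (median -4.07), and at ZT12 0 were lower and 1 higher (median 0.20, below 0 with median scaling). Krt8 gave -4.08 and 0.07, Krt18 -4.22 and 0.02 (-0.80 and -0.86 at ZT12 with median scaling), and Krt14 -4.70 and 1.46. The summed scaled level of the 7 keratins was 190.8 and 10.7 in the ALDH-low and ALDH-high fractions of ZT0, and 84.2 and 90.7 in those of ZT12. That of the 9 genes described was 14.99, 3.40, 7.85 and 10.7, so both sums were lowest on the ZT0 ALDH-high array and highest on the ZT0 ALDH-low array.

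Neutrophil markers had the opposite sign in most genes, with 8 of 11 at least 2-fold higher at ZT0 (median 3.43) and 7 lower and 2 higher at ZT12 (median -2.35). Ly6g gave 4.97 and -3.06, Cxcr2 4.69 and -3.18, and Mmp8 4.37 and -3.47. Their summed level was 2290, 3609, 2134 and 3120, so the sum was higher in the ALDH-high fraction at both times. At ZT12 this sum went against most genes of the list, since the brightest genes weigh most in it. The brightest on both ZT12 arrays, named after their values were seen, were S100a9 (-0.26 and 1.27), Csf3r (-0.72 and 1.70) and S100a8 (0.35 and 0.57). T and NK cell markers were lower at ZT0 in 11 of 13 genes (1 higher, median -3.00) and higher at ZT12 in 12 (median 4.27), with Gzma at -4.22 and 7.60, Il2rb at -3.47 and 5.85 and Gzmb at -3.45 and 5.78. B cell markers were lower in 6 of 7 measured of 8 listed and then higher in 6 of 7 (medians -1.98 and 5.59; Cd79b -4.39 and 5.62, Vpreb3 -6.90 and 6.67). Red cell markers were lower in 4 of 4 measured of 8 listed and then higher in 4 of 4 (medians -8.12 and 6.36; Hba-a1 -7.85 and 6.16, and the near-identical copies Hbb-bt and Hbb-b2, uncertain as separate genes, -8.39 and 6.55, and -8.57 and 6.69). The summed levels in array order were 49.6, 24.2, 10.7 and 64.5 for T and NK cells, 27.7, 5.16, 1.57 and 36.4 for B cells, and 849.5, 3.26, 3.63 and 284.4 for red cells. These 3 sums were high on both arrays of position 1_1 and low on both of position 1_2. The levels of 6 of the 8 genes, all but Tjp1 and Marveld2, were likewise higher on both arrays of position 1_1 than on both of position 1_2.

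Macrophage markers were at least 2-fold lower at ZT0 in 5 of 8 and higher at ZT12 in 5 of 8 (medians -2.32 and 1.90; C1qa -2.80 and 3.19, C1qb -2.57 and 3.23, C1qc -2.67 and 2.90), with sums of 213.3, 153.4, 147.5 and 262.4. Of the same list, Csf1r (0.61 and -0.27) and Cd68 (0.36 and -0.08), named after their values were seen, had the opposite signs. Fibroblast markers gave 3 lower and 1 higher of 10, then 2 lower and 3 higher (medians -0.54 and 0.55; Fap 1.90 and -1.61, Thy1 -3.30 and 4.93, Postn -2.62 and 1.73), with sums of 31.9, 23.2, 15.0 and 26.4. Endothelial markers gave 2 lower and 1 higher of 5 measured of 10 listed, then 0 lower and 2 higher of 4 (medians 0.54 and 0.67; Pecam1 0.54 and -0.04, Kdr -1.83 and 2.04, Vwf 0.85 and -0.24, Egfl7 -1.90 and 1.39), with sums between 1.26 and 1.94 and with Tek, Tie1, Emcn and Cldn5 not well above background on any array. Platelet markers gave 1 lower and 1 higher of 8 measured of 10 listed, then 0 lower and 2 higher of 7 with a difference (medians -0.26 and 0.24; Itga2b 0.76 with a bound of -0.54, Pf4 -2.79 and 2.01, Gp1bb 0.75 and 0.16, Gp6 -0.26 and 2.17), with sums between 7.33 and 41.5. Mast cell and basophil markers gave 0 lower and 1 higher of 6, then 1 lower and 5 higher (medians -0.46 and 3.01; Mcpt8 -0.47 and 3.44, Prss34 -0.52 and 3.72, Kit 2.69 and -2.84), with sums between 3.82 and 6.57. With median scaling the ZT0 medians of the platelet and mast cell lists and the ZT12 medians of the platelet, endothelial and fibroblast lists changed sign. With averaged oligos Kit gave 0.26 and -0.28 and Vwf -0.20 and 0.89, and with normexp and quantile normalization Postn gave -0.83 at ZT0 and Gp6 0.35 at ZT12. With median scaling the sign turned for Gp1bb at ZT12 (-0.71) and for Gp6 (0.22) and Mcpt8 (0.01) at ZT0.

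**Figure D4:**
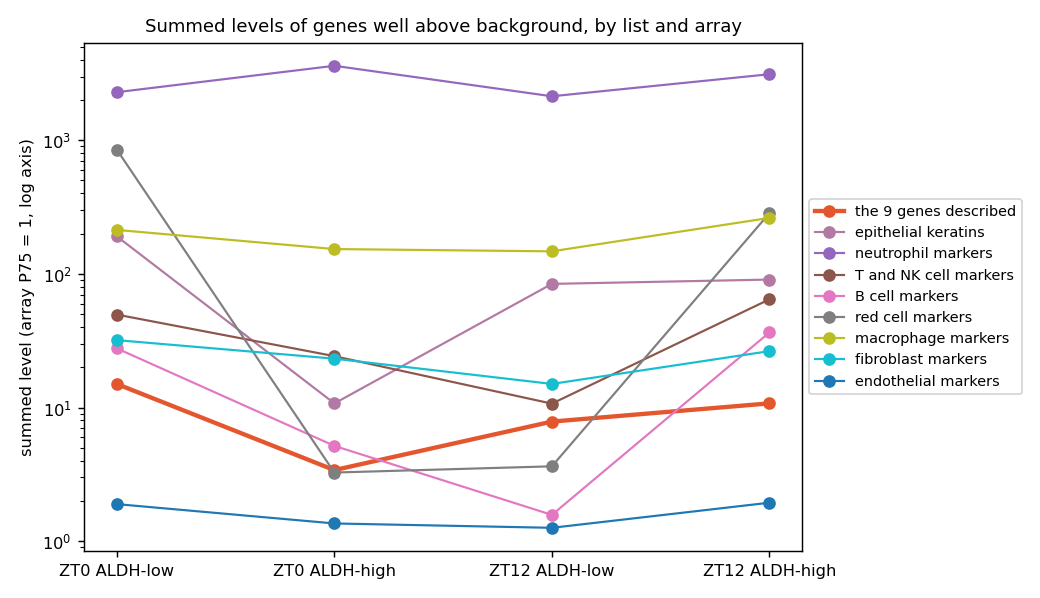
Summed scaled level (1 is the 75th percentile of the array, log axis) of the genes well above background in each list, on the 4 arrays; each line is 1 list with 1 array per point, and lines are to be read along the arrays and not against each other. The 9 genes described and the keratins are lowest on ZT0 ALDH-high, while red cell and B cell markers are low on both ZT0 ALDH-high and ZT12 ALDH-low.

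Genes with the pattern nearest to each of 5 of the genes were found among 12764 other named genes well above background on all 4 arrays, by the root mean square of the difference between log2 levels centred on each gene's mean. With only 4 arrays many genes share a pattern, and the names are a description. Nearest to Epcam were Efna5 (0.15 log2 units), Prelp (0.17), Lgals1 (0.18), St14 (0.19) and Sox9 (0.19). Nearest to Cldn3 were Erbb2 (0.11), the keratin Krt18 (0.13), Tmem54 (0.16), Msln (0.18) and the keratin Krt19 (0.20). Nearest to Tjp1 were Sspn (0.04), Htra1 (0.10), Cyr61 (0.11), Meis1 (0.11) and Hr (0.11). For F11r they were Sh3pxd2b, St6gal1, Cct3, Fbxo44 and Cyth3, all within 0.05 log2 units, and for Cdh1 they were Jagn1, Prdx3, Adal, Immp1l and Prl2c1, all within 0.03.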

How the data were processed

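RNA of 4 sorted fractions was measured on 1 array each; depth does not apply, and the signal over background limits precision. Per the file headers, Agilent Feature Extraction 10.7.1.1 gave the deposited processed signal, a background-subtracted intensity on a linear scale with its error; version 9.5.1.1 is named in the submitters' processing notes. The authors' deposited series table holds the same intensity values, quantile normalized. Control spots were left out, and outlier spots were left out where the oligo had another spot. Each oligo of the 9 genes has 1 spot, so no outlier filter acted on these genes. The log2 signal minus the 75th percentile of each array was taken. Oligos had to be well above background on at least 2 arrays, and the oligo with the highest mean level stood for a gene. Differences of 2 arrays carry no test; 2-fold is a size. limma 3.58.1 in R 4.3.3 (lmFit, eBayes, two-sided, Benjamini-Hochberg) fitted ALDH arm and time. On simulated data it was required to recover known changes only at the lower noise level tried, which is below the error fitted to these arrays. That run therefore does not show that the fit can find changes here. Python 3.11.15, pandas 2.3.3, numpy 2.4.6 and matplotlib 3.10.9 did the rest. Oligo positions are in mm9; RefSeq names, all 9 genes found, and promoters are GRCm38.p6. The genes and 18 other lists (185 distinct genes, 7 under an older symbol) were chosen with earlier results of these data known. Named were the 9 genes, fixed partners, the 3 genes of widest range in each list where all 4 arrays were well above background, and the 5 nearest genes. Some genes that this rule names are not reported here. Scaling, background correction, probe choice, filter, position and each array were varied. Cldn4, Ocln and other dim oligos were not imputed.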

Additional observations from a re-analysis of the deposited data

Results flagged for a closer look

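Epcam was at least 2-fold lower in the ALDH-high than in the ALDH-low fraction at ZT0 and at least 2-fold higher at ZT12, on 1 array per group; 19.8% of all features passed both of these sizes. The ZT12 difference kept its sign but was below 2-fold with median scaling (0.21), quantile normalization (0.74), normexp and quantile normalization (0.48) and the series table (0.78). The ALDH difference at ZT12 minus that at ZT0 was 4.65 log2 units. The difference between the times was not tested, and 84.2% of all features had opposite signs at the 2 times.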

How the results depend on the processing

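With 1 array per group, no difference of 2 arrays has a replicate check, and dim oligos (Cldn4, Ocln) are limited by the background. For the ALDH difference at ZT12, the count of genes at least 2-fold lower was 2 with median scaling, 1 with quantile normalization and 1 in the series table, against 0; the count at least 2-fold higher was 0 with each of these and with normexp and quantile normalization, against 1. In the ALDH-low fraction, 1 gene was at least 2-fold lower at ZT12 with median scaling, against 4. The ZT0 counts and those between times in the ALDH-high fraction stayed within 1.5 times of the values given in each alternative, but with normexp and quantile normalization the median ZT0 difference over the genes was -1.61, against -2.77. Within position 1_1 the count was 0 with normexp and quantile normalization and 1 with the filter on all 4 arrays, which drops Cldn4, against 2, and within position 1_2 it was 3 with normexp and quantile normalization, against 6; these alternatives were chosen after seeing the data. Averaging oligos reversed Dlg1 in the 4 comparisons of arm and time (0.126, -0.0698, 0.185 and -0.0109); the cause was not tested. The limma fits called 0 of the 9 genes for ALDH and time in every alternative, including without each array in turn (0 to 0), with no term for the other factor and with array position as a fixed term, added after seeing the data because a random block correlation could not be estimated. Without the ZT12 ALDH-high array 1 feature, none of the 9 genes, was called for time (limma adjusted p = 0.0439). The fits on 3 arrays dropped the other factor and leave 1 arm with a single array, which is taken to have the spread of the pair. The additive fit already takes the slide, which is also the time, as its block; no other pairing is given by the labels. Of 292 values for single genes and list medians, 65 moved with median scaling, 50 with normexp and quantile normalization, 31 with quantile normalization, 30 in the series table and 15 with averaged oligos.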
